A study of Mus musculus with 4 samples.

Results

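The genes described here are 10 G protein-coupled receptors of T cells that do not bind chemokines, out of 23356 gene rows in the authors' deposited table. They were taken by symbol, from a list drawn up with earlier results of these data known. They are Ptger2, Ptger4, Ltb4r1, Gpr183, Gpr18, Gpr65, Gpr132, Gpr174, Gpr171 and Gpr83. Each has 1 row, and all 10 were tested by the authors, so that no receptor was lost to a filter on low values. RNA came from T cells of C57BL/6 mice aged 6-8wks, grown for 48 h under conditions that make Th17 cells, which are CD4 T cells defined by IL-17 cytokines. Of 4 libraries, 2 came from cells given recombinant murine serum amyloid A1 (SAA1), which the liver and gut make in inflammation, at a labelled 2 ng/ml, and 2 from cells labelled veh in their titles and none for treatment. Both groups are wild type by the series' design text, and these are cultured cells and not tissue. The labels do not say whether the 2 libraries of a group came from separate mice or cultures.

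Receptors of this class sense small molecules in the tissue around a T cell. Prostaglandin E2 acts on Ptger2 and Ptger4 through the stimulatory G protein and cyclic AMP (cAMP), which activates protein kinase A and the transcription factor CREB. Ltb4r1 responds to leukotriene B4 and Gpr183 to oxysterols, both through inhibitory G proteins and both in cell migration. Gpr65 is activated by protons and Gpr174 by lysophosphatidylserine, and both raise cAMP. Gpr132, Gpr18, Gpr171 and Gpr83 have ligands that are proposed or disputed, and Gpr83 is known for its high transcript level in regulatory T cells.

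Expression is given as FPKM, in which the fragments of a gene are divided by its transcript length and by the fragments mapped in all, with a single value per group, made by the authors with Cuffdiff from its 2 libraries. The values per library, the spread between libraries and the sequencing depth are unknown, so no SD can be given and no order of levels can be set against replicate error. Ratios are log2 of SAA1 FPKM over vehicle FPKM, with the standard error (SE) implied by the authors' test statistic. Among T cell markers, 7 of 7 matched genes were tested, with summed levels of 972 FPKM with SAA1 and 1031 FPKM with vehicle. Il17a, the cytokine that names the lineage, was at 568 FPKM with SAA1 and 56.0 FPKM with vehicle.

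A receptor was called where its adjusted p was under 0.05 in the authors' deposited table. By that rule 0 of the 10 receptors were called higher and 1, Gpr174, was called lower with SAA1. Of all 11481 genes tested, 6.52% were called, 3.97% higher and 2.55% lower, so that 1 call among 10 receptors is near the background. At an unadjusted p under 0.05 there were 4 receptors, Ltb4r1 and Gpr83 higher and Gpr174 and Gpr183 lower, against 15.8% of all tested genes. At an adjusted p under 0.1, which 8.81% of all tested genes passed, 1 receptor was higher and 2 were lower. The receptors were on the whole moderately to strongly expressed, and 6 of the 10 lay within 1.3-fold between the groups.

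The promoters of the called receptor and of the pair nearest to the threshold, one lower and one higher, are shown because their expression values differ most in relation to their SE among receptors above 1 FPKM. Each is the RefSeq window on GRCm38.p6 from 250 bases before to 50 bases after a transcript start, written 5′ to 3′ on the gene's strand, with any TGACG, the core of the CREB site, in capitals on either strand. The Gpr174 window lies at chrX:107284096-107284395 on the plus strand, the Gpr183 window at chr14:121965144-121965443 on the minus strand and the Gpr83 window at chr9:14859960-14860259 on the plus strand.
Gpr174: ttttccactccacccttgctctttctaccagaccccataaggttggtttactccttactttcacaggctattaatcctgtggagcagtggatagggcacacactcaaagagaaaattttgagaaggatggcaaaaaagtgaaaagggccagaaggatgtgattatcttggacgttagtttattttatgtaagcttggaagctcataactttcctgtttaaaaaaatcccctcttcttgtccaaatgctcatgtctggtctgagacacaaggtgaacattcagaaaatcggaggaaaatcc
Gpr183: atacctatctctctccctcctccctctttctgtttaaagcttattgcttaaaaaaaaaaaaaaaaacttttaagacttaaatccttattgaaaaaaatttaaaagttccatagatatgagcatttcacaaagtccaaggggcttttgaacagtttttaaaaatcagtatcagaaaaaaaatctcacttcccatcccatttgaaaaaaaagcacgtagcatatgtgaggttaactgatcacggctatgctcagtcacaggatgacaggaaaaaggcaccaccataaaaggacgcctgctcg
Gpr83: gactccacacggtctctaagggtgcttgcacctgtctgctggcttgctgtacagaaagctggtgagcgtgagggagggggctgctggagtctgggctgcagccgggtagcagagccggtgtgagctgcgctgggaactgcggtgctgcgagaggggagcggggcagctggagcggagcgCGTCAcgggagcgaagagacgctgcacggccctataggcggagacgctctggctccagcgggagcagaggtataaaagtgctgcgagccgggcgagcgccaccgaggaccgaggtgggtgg
The Gpr174 window starts at 1 of several annotated transcripts, 28.5 kb inside the 5′ end of the gene in GENCODE, and the Gpr132 window 7.3 kb inside its gene's 5′ end. The lower pair had AT-rich windows with few CpG dinucleotides, at 41.0% G+C and 2 CpG for Gpr174 and 35.3% and 4 CpG for Gpr183. The Gpr83 window had 67.0% G+C and 24 CpG, against medians of 52.7% and 7 CpG over 32851 promoter windows of the same length. AT-rich windows were also those of Gpr65 (38.3%, 3 CpG), Ptger2 (37.7%, 3 CpG) and Gpr18 (44.0%, 5 CpG). Gpr132 had 57.7% and 7 CpG, Ltb4r1 56.3% and 3 CpG, and Ptger4 67.0% and 25 CpG. A low G+C was thus not confined to the lower pair, and its relation to the ratios was not tested. Windows were found for 9 of the 10 receptors. The full CREB site TGACGTCA was in 0 of the 9 windows and in 1.79% of all windows, and the STAT site TTCNNNGAA in 0 of the 9 and in 8.30% of all. The core TGACG, which the full CREB site also contains, was in 2 of the 9, those of Gpr83 and Gpr132, and in 20.8% of all windows, searched on both strands. These are matches of letters in a fixed window and not binding sites.

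Levels of the receptors spanned a wide range, and their order was alike in both groups. Gpr171 was the most abundant, at 89.0 FPKM with SAA1 and 107 FPKM with vehicle, followed by Gpr65 at 81.0 FPKM with SAA1 and 70.5 FPKM with vehicle. Ptger4 was next in both groups. The middle of the order differed: with SAA1 it ran Gpr132, Gpr174, Ptger2, Gpr183 and Gpr18, between 26.4 and 19.3 FPKM, and with vehicle Gpr174, Gpr183, Ptger2, Gpr132 and Gpr18, between 38.0 and 22.7 FPKM. Gpr83 and Ltb4r1 were the lowest in each. In all, 8 receptors exceeded 10 FPKM in both groups, and Ltb4r1 was under 1 FPKM in both. Among 10701 rows with at least 1 FPKM in either group, Gpr171 lay at percentile 89.6 of SAA1 levels and 91.4 of vehicle levels, and Gpr83 at percentiles 12.4 with SAA1 and 7.12 with vehicle. Summed over the 10 receptors, the level was 326 FPKM with SAA1 and 366 FPKM with vehicle. In bulk RNA, fewer cells that express a gene and less of its RNA per cell cannot be told apart.

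**Figure D1:**
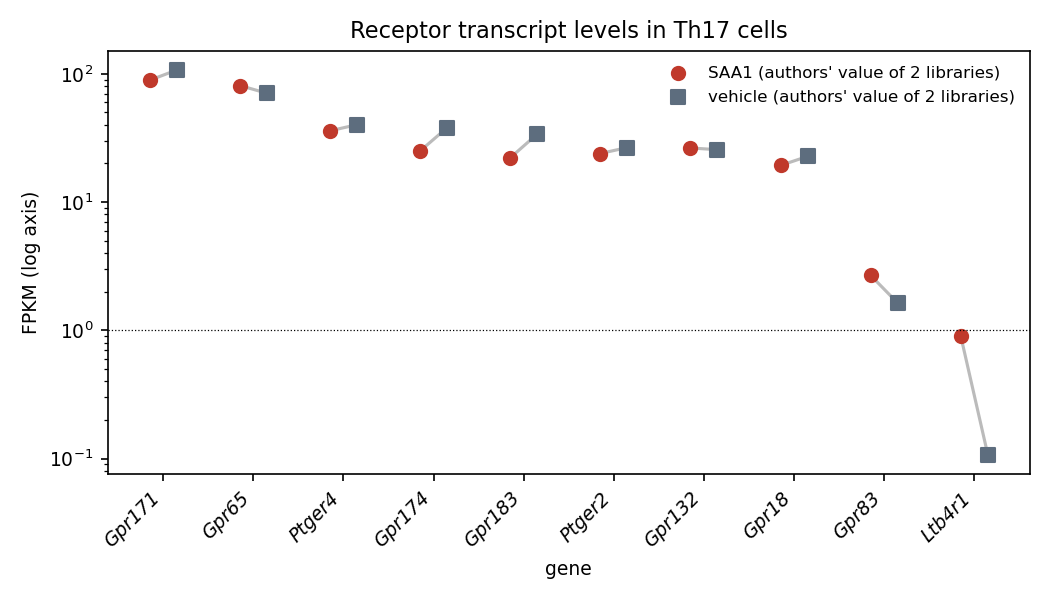
FPKM of each receptor on a log axis, with the authors' value for SAA1 as a red circle left of that for vehicle as a grey square, each made from 2 libraries, and a dotted line at 1 FPKM. Gpr171 and Gpr65 stand at the top in both groups and Ltb4r1, at 0.899 FPKM with SAA1 and 0.107 FPKM with vehicle, at the bottom.

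Ptger2 and Ptger4, the prostaglandin E2 receptors of the set, were expressed in both groups, at nearly matching levels. Ptger2 was at 23.9 FPKM with SAA1 and 26.6 FPKM with vehicle, a log2 ratio of -0.15 ± 0.21 (SE; adjusted p 0.721 in the authors' deposited table). Ptger4 was at 35.9 FPKM with SAA1 and 40.1 FPKM with vehicle, a log2 ratio of -0.16 ± 0.20 (adjusted p 0.711 in the authors' deposited table). Neither passed the test, and the 95% intervals of the log2 ratio, taken as 1.96 SE on either side, ran between -0.56 and 0.25 for Ptger2 and between -0.56 and 0.24 for Ptger4.

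Of the 9 prostanoid receptors on the list, 5 were tested and 0 were called, with 0 at an unadjusted p under 0.05 in the authors' deposited Cuffdiff table. The median log2 ratio of the 5 expressed at 1 FPKM or more was -0.15, beside -0.02 over all genes of that level, on log2 of FPKM plus 0.1. Tbxa2r, the thromboxane receptor, had the largest fold among them, at 1.74 FPKM with SAA1 and 2.14 FPKM with vehicle. The cyclooxygenases, which start prostaglandin synthesis, were low and were not tested: Ptgs2, the inducible form, was at 0.299 FPKM with SAA1 and 0.349 FPKM with vehicle. Ptges3, a prostaglandin E synthase that also serves as a co-chaperone, was at 68.0 FPKM with SAA1 and 67.1 FPKM with vehicle and was not called.

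Ltb4r1, the high-affinity receptor of leukotriene B4, had the largest ratio of the 10 at the lowest level. It was at 0.899 FPKM with SAA1 and 0.107 FPKM with vehicle, 8.37-fold apart, and its log2 ratio was 3.07 ± 1.27 (SE). It was not called, with an adjusted p of 0.193 from the authors' deposited table. The log2 ratio was 2.27 with a pseudocount of 0.1 FPKM and 0.78 with a pseudocount of 1. Ltb4r2, its neighbour on chromosome 14 and the low-affinity receptor, was at 0.151 FPKM with SAA1 and 0.209 FPKM with vehicle and was not tested.

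Among the other leukotriene receptors and the genes that clear prostaglandins, 1 gene of each list was called. Cysltr1, a receptor of cysteinyl leukotrienes whose locus overlaps another gene row, rose to 6.24 FPKM with SAA1, against 2.93 FPKM with vehicle (log2 ratio 1.09 ± 0.28, adjusted p 0.00191 in the authors' deposited table). Ptgr1, an enzyme that inactivates leukotriene B4 and reduces prostaglandins, rose to 9.11 FPKM with SAA1, against 4.09 FPKM with vehicle (1.16 ± 0.26, adjusted p 0.00191 in the same table). Cysltr2, the other cysteinyl leukotriene receptor, was at 4.93 FPKM with SAA1 and 3.30 FPKM with vehicle and was not called (authors' deposited table, adjusted p 0.0950).

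The synthesis genes of the leukotriene list showed little. Of 7 genes, 1 was tested and 0 were called, with 0 at an unadjusted p under 0.05 in the authors' deposited Cuffdiff table. That gene was Lta4h, the hydrolase that makes leukotriene B4, at 74.9 FPKM with SAA1 and 75.5 FPKM with vehicle. Over the receptor list, 1 of 3 tested genes was called higher and 0 lower, and over the prostaglandin synthesis and clearance list 1 of 6 was higher and 0 lower. The shares of all tested genes were 3.97% higher and 2.55% lower. Cbr1, a carbonyl reductase in that list, was at 21.8 FPKM with SAA1 and 17.7 FPKM with vehicle and was not called.

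Gpr183, the oxysterol receptor also known as EBI2, had a ratio as low as that of Gpr174 without passing the test. It was at 22.1 FPKM with SAA1 and 33.9 FPKM with vehicle, a log2 ratio of -0.62 ± 0.30 (SE). In the authors' deposited table the unadjusted p was 0.00445 and the adjusted p 0.0611. Gpr18, an orphan receptor for which lipid ligands are disputed, was at 19.3 FPKM with SAA1 and 22.7 FPKM with vehicle, a log2 ratio of -0.23 ± 0.56 (adjusted p 0.905 in the authors' deposited table). The ratio of Gpr183 was further from 0 than that of Gpr18, and its SE smaller. Enzymes that make or remove oxysterols were near or under 1 FPKM: of 5, 1 was tested and 0 were called, with 0 at an unadjusted p under 0.05 in the Cuffdiff table. That gene, Hsd3b7, which inactivates the ligand by oxidation, was at 0.952 FPKM with SAA1 and 1.06 FPKM with vehicle.

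Gpr183 and Gpr18 share 1 locus of the deposited table, chromosome 14 from 121878606 to 122021035 on mm10, with Ubac2. In GENCODE both receptors lie on the strand opposite to Ubac2, within its introns, with no exon of a coding Ubac2 transcript overlapped. Ubac2, a ubiquitin-associated protein of the endoplasmic reticulum, was at 34.0 FPKM with SAA1 and 25.2 FPKM with vehicle, a log2 ratio of 0.43 ± 0.34 (adjusted p 0.384 in the authors' deposited table), so its ratio and those of the receptors inside it have opposite signs. Whether counting used strand is not stated in the labels, and reads from overlapping genes could not be told apart. The SE of Gpr18, at 0.56, was far above that of Ptger2, at 0.21, although their levels are close. Over tested genes with a mean of 15 to 40 FPKM, the median SE was 0.24 for 523 rows that share a locus, with a 95th percentile of 0.62, and 0.21 for 2375 rows that do not, with a 95th percentile of 0.24.

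**Figure D2:**
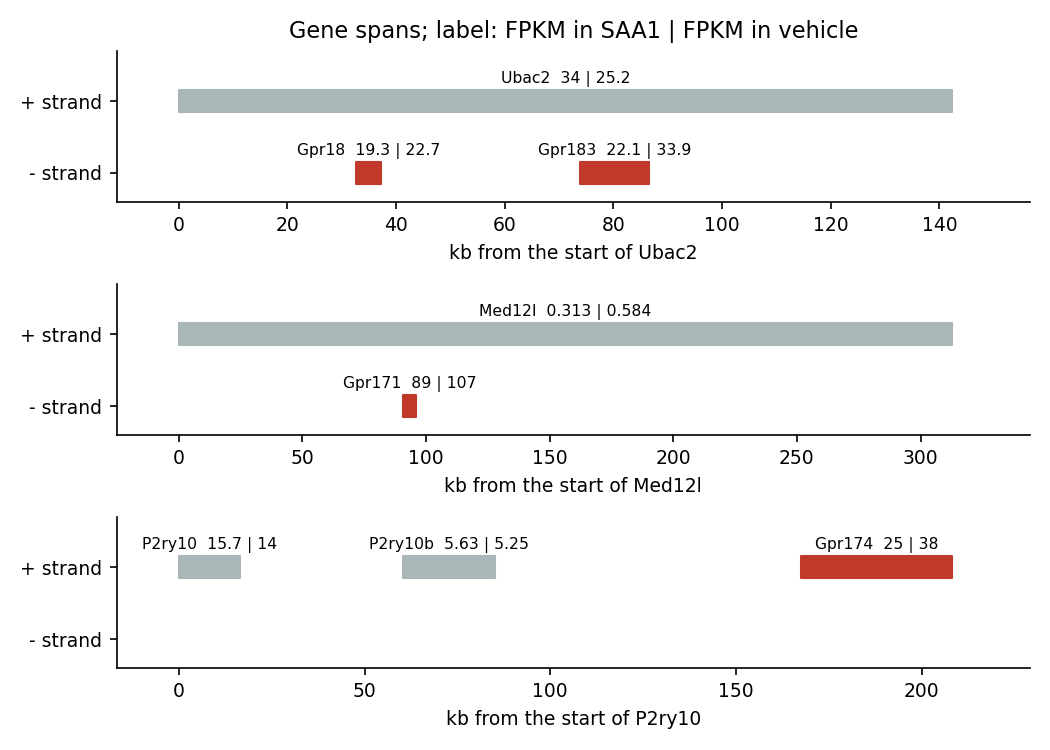
Spans of genes by strand, in kb from the start of Ubac2, Med12l and P2ry10, with receptors of the set in red, other genes in grey and the FPKM with SAA1 left of that with vehicle beside each name. Gpr18 and Gpr183 lie inside Ubac2 and Gpr171 inside Med12l, each on the opposite strand, whereas Gpr174 lies apart from P2ry10b and P2ry10.

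Gpr65 and Gpr132, of the proton-sensing family, were well expressed and neither was called. Gpr65 was at 81.0 FPKM with SAA1 and 70.5 FPKM with vehicle, a log2 ratio of 0.20 ± 0.20 (SE; adjusted p 0.562 in the authors' deposited table). Gpr132, placed in this family by sequence, was at 26.4 FPKM with SAA1 and 25.6 FPKM with vehicle, a log2 ratio of 0.04 ± 0.21 (adjusted p 0.970 in the authors' deposited table). The interval of its log2 ratio ran between -0.37 and 0.46, and that of Gpr65 between -0.19 and 0.59.

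Gpr174, the X-linked receptor of lysophosphatidylserine that restrains T cells in mice, fell with SAA1. It was at 25.0 FPKM with SAA1 and 38.0 FPKM with vehicle, 1.52-fold apart, and its log2 ratio was -0.60 ± 0.20 (SE, 95% interval between -1.0 and -0.21). The authors' deposited table gives an unadjusted p of 5e-05, the smallest it holds and shared by 300 genes, and an adjusted p of 0.00191. A two-sided normal p computed from the deposited statistic of -3.00 was 0.00266, with an adjusted p of 0.0993, at which the call is lost. By that p, 2.17% of 11403 genes were called. Its locus, chromosome X from 107255878 to 107296769 on mm10, overlaps no other row. Its vehicle level stood at percentile 74.0 and its SAA1 level at percentile 63.5 of rows with at least 1 FPKM.

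Other lysophosphatidylserine receptors, 2 of them neighbours on chromosome X, were not called. P2ry10 was at 15.7 FPKM with SAA1 and 14 FPKM with vehicle (log2 ratio 0.17 ± 0.22), and A630033H20Rik, which RefSeq names P2ry10b, at 5.63 FPKM with SAA1 and 5.25 FPKM with vehicle (0.10 ± 0.25). The difference between their ratios and that of Gpr174 was not tested. Gpr34, a further receptor of this lipid in a locus shared with other rows, was at 1.08 FPKM with SAA1 and 2.20 FPKM with vehicle, a log2 ratio of -1.03 ± 0.66 (adjusted p 0.256 in the authors' deposited table). Of 6 tested genes of this receptor and enzyme list, 0 were called higher and 1, Gpr174, lower, and the median log2 ratio was 0.05. Calls among all tested genes were 3.97% higher and 2.55% lower.

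Gpr171, the most abundant of the set and an inhibitory receptor in T cells, was at 89.0 FPKM with SAA1 and 107 FPKM with vehicle. Its log2 ratio of -0.26 ± 0.20 (SE) was not called: the authors' deposited table gives an unadjusted p of 0.0663 and an adjusted p of 0.366. In FPKM it differed most of all, by -17.8 (SAA1 minus vehicle), beside -13.0 for Gpr174, -11.8 for Gpr183 and 10.5 for Gpr65. It lies within an intron of Med12l on the opposite strand, in a locus with 7 other rows. Med12l, a Mediator subunit gene, was at 0.313 FPKM with SAA1 and 0.584 FPKM with vehicle, and each of the 7 was under 1 FPKM in both groups, which is far below Gpr171.

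Gpr83 was low and higher with SAA1, without a call. It was at 2.68 FPKM with SAA1 and 1.63 FPKM with vehicle, 1.64-fold apart, and its log2 ratio was 0.72 ± 0.35 (SE). As for Gpr183, the authors' deposited table gives an unadjusted p of 0.00445 and an adjusted p of 0.0611. Beside it, the regulatory T cell factor Foxp3 was at 0.184 FPKM with SAA1 and 0.169 FPKM with vehicle and was not tested. Of 4 tested regulatory T cell markers 1 was called higher and 0 lower: Ctla4, an inhibitory receptor that activated T cells also express, rose to 745 FPKM with SAA1, against 299.6 FPKM with vehicle. The share of all tested genes called higher was 3.97%. Ikzf2, the factor Helios, was at 2.80 FPKM with SAA1 and 2.24 FPKM with vehicle. Il2ra was at 81.0 FPKM with SAA1 and 83.4 FPKM with vehicle, and Tnfrsf18 at 311 FPKM with SAA1 and 298 FPKM with vehicle. The part of such cells in the value of Gpr83 was not tested.

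Peptides proposed as ligands of Gpr83 and Gpr171 come from the precursor gene Pcsk1n, which was listed at 0 in both groups. Of 5 genes of such peptides and their processing, 2 were tested and 0 were called, with 0 at an unadjusted p under 0.05 in the authors' Cuffdiff table. Penk, the proenkephalin gene, was at 2.37 FPKM with SAA1 and 2.27 FPKM with vehicle, and Pam, a peptide-amidating enzyme, at 0.902 FPKM with SAA1 and 1.09 FPKM with vehicle.

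**Figure D3:**
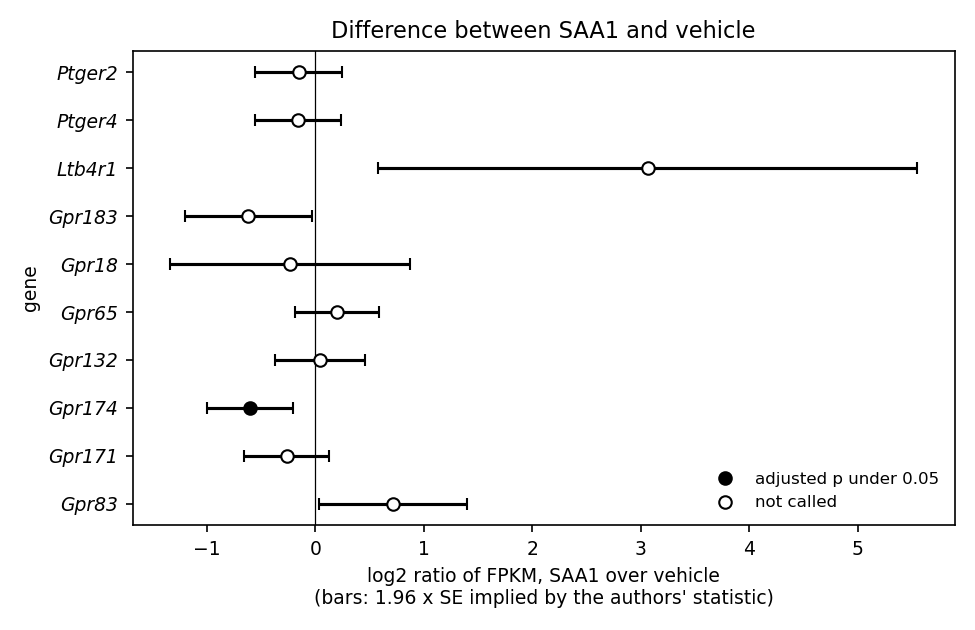
Log2 ratio of FPKM, SAA1 over vehicle, for each receptor from the prostaglandin receptors at the top to Gpr83 at the bottom, with bars of 1.96 SE implied by the authors' statistic and filled points for an adjusted p under 0.05. Gpr174 is the filled point, at -0.60, and the bar of Ltb4r1 is the widest, between 0.58 and 5.55.

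Across the 10 receptors, 4 were higher and 6 lower with SAA1 by their values, and 4 differed by at least 1.5-fold. The median log2 ratio of the 9 with at least 1 FPKM was -0.16, beside -0.02 over the 10701 rows of that level, and the median size of the ratio, without its sign, was 0.23 beside 0.14. The 95% interval of the ratio included 0 for 6 receptors. In gene structure, 6 of the 10 had their whole coding sequence in 1 exon of the principal GENCODE transcript, among them Gpr174, Gpr183 and Ltb4r1, whereas Ptger2 had 2 coding exons, Ptger4 had 3 and Gpr83 had 4.

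Receptors of related lipids and nucleotides held calls in both directions. S1pr1, the receptor that lets T cells leave lymph nodes, rose to 10.4 FPKM with SAA1, against 7.11 FPKM with vehicle (log2 ratio 0.54 ± 0.23), and S1pr3 had 0.840 FPKM with SAA1, against 0.207 FPKM with vehicle (2.02 ± 0.50). These were the 2 called higher of 6 tested receptors of sphingosine 1-phosphate and lysophosphatidic acid, with 0 lower, at adjusted p-values of 0.0182 and 0.00191 in the authors' deposited table. P2ry1, an ADP receptor, fell to 3.79 FPKM with SAA1, against 8.91 FPKM with vehicle (-1.23 ± 0.24, adjusted p 0.00191 in the same table), the 1 call among 5 tested adenosine and nucleotide receptors. Beside these counts, 3.97% of all tested genes were called higher and 2.55% lower. Adora2b, a low-affinity adenosine receptor, was at 2.61 FPKM with SAA1 and 3.02 FPKM with vehicle.

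Cannabinoid, fatty acid and bile acid receptors were scarce, with 3 of 13 tested, 0 called and 0 at an unadjusted p under 0.05 in the authors' Cuffdiff table. Gpr55 was at 1.46 FPKM with SAA1 and 1.19 FPKM with vehicle, and Cnr2, the cannabinoid receptor of immune cells, at 0.972 FPKM with SAA1 and 1.27 FPKM with vehicle. In all, 3.97% of tested genes were called higher and 2.55% lower. Among 85 further rows with a Gpr symbol, 19 were tested, of which 1 was called higher and 0 lower. That gene was Gpr15, a receptor that guides T cells to the colon, which rose to 3.76 FPKM with SAA1, against 1.29 FPKM with vehicle (1.55 ± 0.44, adjusted p 0.00191 in the authors' deposited table). Abundant rows among these were Gpr89 at 32.4 FPKM with SAA1 and 38.4 FPKM with vehicle, and Gpr108 at 19.4 FPKM with SAA1 and 17.2 FPKM with vehicle.

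Below the receptors, most signalling genes did not pass the test. For all tested genes the shares called were 3.97% higher and 2.55% lower. Of 12 tested G protein subunits 0 were called higher and 1 lower, Gna15, a subunit of the Gq class found in blood cells, at 3.20 FPKM with SAA1 and 5.83 FPKM with vehicle (log2 ratio -0.87 ± 0.28, adjusted p 0.00471 in the authors' deposited table). Gna12, a subunit of another class, was at 8.79 FPKM with SAA1 and 10.9 FPKM with vehicle. Of 6 tested receptor kinases and arrestins 1 was higher and 0 lower: Arrb1, which encodes beta-arrestin 1 and whose locus overlaps another row, rose to 9.67 FPKM with SAA1, against 5.71 FPKM with vehicle (0.76 ± 0.21, adjusted p 0.00191 in the same table). Grk5, a receptor kinase, was at 6.54 FPKM with SAA1 and 6.12 FPKM with vehicle.

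Enzymes of the cAMP pathway held 0 calls, beside 6.52% of all tested genes. The Cuffdiff table gives 15.8% of all tested genes an unadjusted p under 0.05. Of 9 tested cyclases and phosphodiesterases, 2 had an unadjusted p under 0.05 in the authors' Cuffdiff table: Adcy6, a cyclase, at 8.16 FPKM with SAA1 and 6.09 FPKM with vehicle (authors' deposited table, adjusted p 0.0723), and Pde4d, a phosphodiesterase, at 6.99 FPKM with SAA1 and 5.26 FPKM with vehicle (0.0790). Of 12 tested genes of protein kinase A and CREB, 1 had an unadjusted p under 0.05 there, Prkacb, a catalytic subunit, at 31.6 FPKM with SAA1 and 39.8 FPKM with vehicle. Prkar2a, a regulatory subunit, was at 14.8 FPKM with SAA1 and 17.7 FPKM with vehicle.

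Genes known to respond to cAMP, which also respond to other signals in activated T cells, included 3 increases among 14 tested and 0 decreases. Crem, a CREB family gene whose locus overlaps another row, rose to 49.2 FPKM with SAA1, against 31.8 FPKM with vehicle (log2 ratio 0.63 ± 0.21). Nr4a2, a nuclear receptor, rose to 19.9 FPKM with SAA1, against 11.8 FPKM with vehicle (0.75 ± 0.21), and Sik1, a kinase that restrains CREB coactivators, rose to 10.5 FPKM with SAA1, against 7.42 FPKM with vehicle (0.50 ± 0.22). Their adjusted p-values in the authors' deposited table were 0.00191, 0.00191 and 0.0254. Over all tested genes 3.97% were called higher. At an adjusted p under 0.01, 2 of the 14 were higher, against 2.46% of all tested genes. At an unadjusted p under 0.05 there were 7 of the 14, against 15.8% of all tested genes, and the median log2 ratio of the 13 expressed was 0.33, beside -0.02 over all genes of that level. This list was chosen with earlier results of these data known, so the counts describe it and do not test it.

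By the normal p of the deposited statistic, 8 of the 15 calls among the receptors and the listed genes passed an adjusted p of 0.05. Crem had an adjusted p of 0.106 by it, Sik1 0.381, S1pr1 0.351, Gna15 0.0785, Thy1 0.177 and Cd3e 0.471, and these calls are lost along with that of Gpr174, whereas Nr4a2 had 0.0254, Gpr15 0.0273, Arrb1 0.0191, Cysltr1 0.00629, S1pr3 0.00506, Ptgr1 0.00105, P2ry1 6.9e-05 and Ctla4 4.6e-08.

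**Figure D4:**
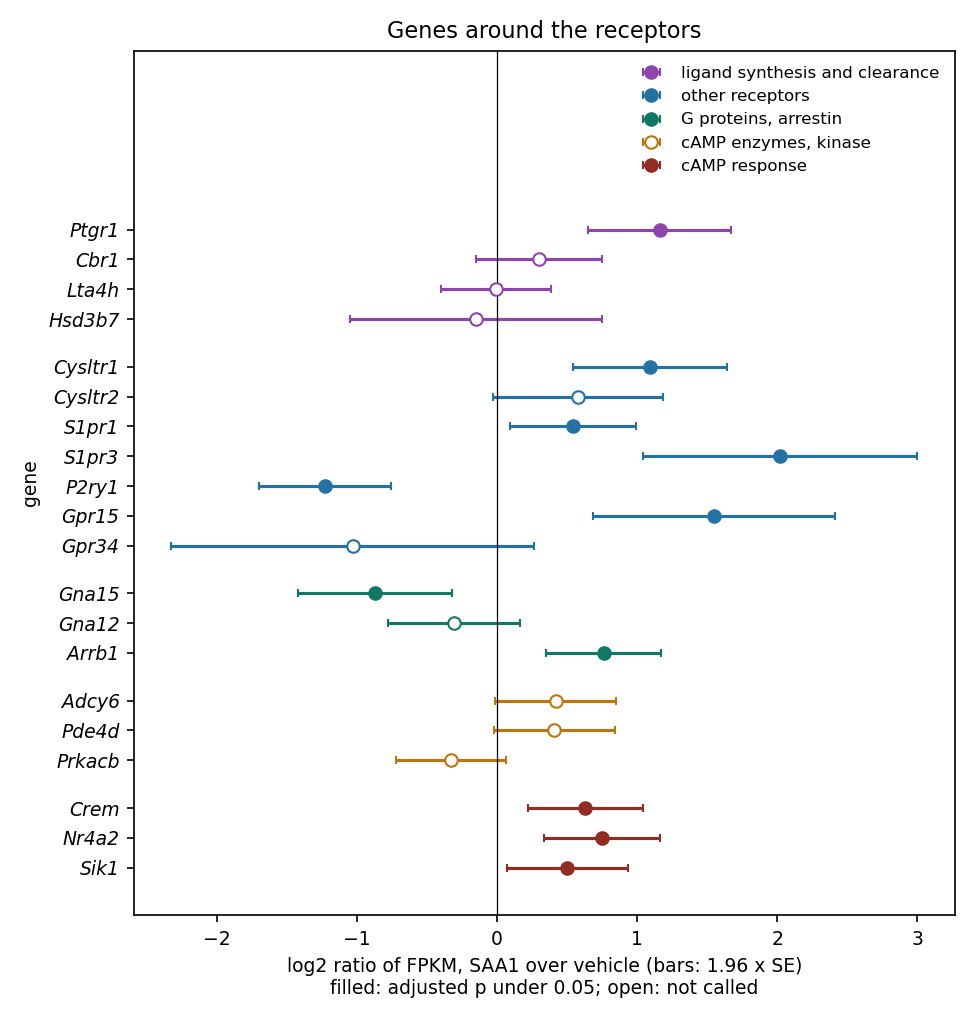
Log2 ratio of FPKM, SAA1 over vehicle, for genes around the receptors, coloured by role, with bars of 1.96 SE and filled points for an adjusted p under 0.05 in the authors' table. The filled points right of 0 are Ptgr1, Cysltr1, S1pr1, S1pr3, Gpr15, Arrb1, Crem, Nr4a2 and Sik1, and those left of 0 are P2ry1 and Gna15.

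Several of these receptors are also expressed by myeloid and B cells, whose markers were low here. Macrophage and monocyte markers, 9 genes, summed to 1.47 FPKM with SAA1 and 2.18 FPKM with vehicle, with Cd68 at 1.05 FPKM with SAA1 and 1.58 FPKM with vehicle, and 2 of the 9, C1qa among them, listed at 0 in both groups. The 7 B cell markers summed to 1.74 FPKM with SAA1 and 2.19 FPKM with vehicle and none was listed at 0 in both. The 4 matched neutrophil markers summed to 0.147 FPKM with SAA1 and 0.0687 FPKM with vehicle, and the 5 markers of eosinophils, mast cells and basophils to 0.0556 FPKM with SAA1 and 0.0189 FPKM with vehicle, with 2 genes of each list at 0 in both groups. The 5 markers of CD8 and natural killer cells summed to 4.52 FPKM with SAA1 and 4.66 FPKM with vehicle, nearly all of it Cd8b1, at 4.24 FPKM with SAA1 and 4.32 FPKM with vehicle. Of the T cell markers, Thy1 rose to 96.8 FPKM with SAA1, against 66.0 FPKM with vehicle, and Cd3e fell to 28.2 FPKM with SAA1, against 39.1 FPKM with vehicle, both called by the authors' deposited table, with a median log2 ratio over the list of -0.13. The part of other cells or of T cell yield in the value of any receptor was not tested.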

How the data were processed

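RNA of cultured Th17 cells was sequenced from Illumina TruSeq libraries, per the labels' protocols, and the 4 libraries were grouped by title. TopHat2, Cuffdiff, mm9 and mm10 are named in the submitters' processing notes; scaling and strand settings are not stated there. The authors' deposited table gives 1 FPKM value per group and, per gene, a test statistic, the score whose denominator is the SE, with the authors' p-value and q-value. The q-value, called adjusted p here, equals a Benjamini-Hochberg adjustment over 11481 tested rows within 5.23e-07.

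The log2 ratio of SAA1 over vehicle was computed, and the SE as that ratio over the deposited statistic (median 0.22). The normal p leaves out 78 tested rows without a numeric statistic. The adjustment of p and the calls by normal p were tested on simulated normal statistics. That test does not bear on the authors' own p-values. List medians use log2 of FPKM plus 0.1 where either group had at least 1 FPKM. Of 21628 rows whose symbol is in GENCODE M21, 99.1% overlap its GRCm38 position, so coordinates are on mm10, counted from 1.

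The members and the 24 lists were chosen with earlier results of these data known. Named are all 10 receptors, genes that overlap their loci, up to 6 called genes per list, the largest folds where fewer than 2 were called, and the 3 highest Gpr rows. Picked outside that rule, with values known, were Ptgs2, Ptges3, Ltb4r2, P2ry10, A630033H20Rik, Pcsk1n, Foxp3, Il2ra, Tnfrsf18, Cd4, C1qa and Il17a. Some genes that the rule names are left out of the text. Of the listed symbols, 4 were matched by an older name and 2 were not matched. Alternatives covered the threshold, fold and level minimums, pseudocount, centring and the source of p. Python 3.11.15, pandas 2.3.3 and scipy 1.17.1 were used.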

Additional observations from a re-analysis of the deposited data

How the results depend on the processing

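At an adjusted p under 0.1, Gpr83 (log2 ratio 0.72) and Gpr183 (-0.62) were also called, which makes 1 receptor higher and 2 lower, against 8.81% of all tested genes. By the normal p of the statistic, adjusted, Gpr174 (-0.60) was not called, which leaves 0 higher and 0 lower, against 2.17% of 11403 genes. The counts were those of the report at a threshold of 0.01, a fold of at least 1.5 and a minimum of 1 FPKM. In the same order, the shares of all genes called, in either direction, were 3.80%, 4.69% and 6.56%. With a recomputed adjustment, and without receptors that share a locus, the counts were also unchanged. No receptor changed direction with a pseudocount of 0.1 or 1 or after centring on the median of all genes. The median over the receptors ran between -0.20 and -0.12 under its alternatives. For the other lists, the number of calls differed in 6 of 96 counts at thresholds of 0.01 and 0.1, by at most 2 genes. Of 37 list medians with a pseudocount of 1 or a minimum of 5 FPKM, 3 changed sign, all at that minimum: sphingosine 1-phosphate and lysophosphatidic acid receptors (0.09 in place of -0.03), G protein subunits (0.01 in place of -0.04) and protein kinase A and CREB (-0.03 in place of 0.05). The largest shift was that of adenosine and nucleotide receptors, -0.59 in place of -0.20. No paired analysis was possible because the table gives 1 value per group and none per library, and for the same reason no replicate could be left out. Depth per library is unknown, so receptors near the floor, Ltb4r1 above all, carry an error that counts cannot bound.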

Other observations

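The order of the receptors by the authors' p followed that by the size of their test statistic, except for Ltb4r1. Ltb4r1, with a statistic of 2.41, had an unadjusted p of 0.0228 in the authors' deposited table, whereas Gpr183, with -2.07, and Gpr83, with 2.05, had 0.00445. The normal p of the same statistics was 0.0158 for Ltb4r1, 0.0388 for Gpr183 and 0.0406 for Gpr83. For every receptor but Ltb4r1 the authors' p was smaller than the normal p, as for Gpr171, at 0.0663 and 0.195. Over all tested genes the normal p gave 247 calls in place of 749, and 225 of the 300 genes at the smallest deposited p were among them.

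Across receptors outside a shared locus and above 10 FPKM the implied SE was almost constant, at 0.20 for Gpr65, Gpr174 and Ptger4 and 0.21 for Gpr132 and Ptger2. Leukotriene genes outside the rule on named genes were also read: Alox5ap, which presents arachidonic acid to the lipoxygenase, was listed at 0.445 FPKM with SAA1 and 0.0837 FPKM with vehicle and was not tested by the authors, and Alox5, the lipoxygenase, at 0.0172 FPKM with SAA1 and 0.0384 FPKM with vehicle.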
